A study of Mus musculus with 3 samples.

Results

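Immediate early genes of the AP-1, Egr and Nr4a families were described in 3 dendritic cell (DC) subsets of mouse spleen. The members were Fos, Fosb, Jun, Junb, Jund, Atf3, Egr1, Egr2, Nr4a1 and Ier3, and every probe set that the platform annotation assigns to one of these symbols was taken. This gave 13 of 45101 probe sets and 10 of 18194 genes, with 0 of the 13 assigned to another gene as well. The subsets were plasmacytoid DC (pDC), CD11b+ conventional DC (cDC) and CD8+ cDC from naive female C57bl/6 mice aged 6 to 8 weeks, without treatment or genetic change in the labels. T and B cells were removed on magnetic beads before the flow cytometric sort, cells of 5 to 8 mice were pooled for each subset, and 20 ng of RNA was amplified for 1 Affymetrix array per subset. With 1 array per subset there is no spread between samples, so no test was run and the values describe these 3 arrays. The genes of the sort proteins followed the labels. Itgam, encoding CD11b, had signals of 2786 on the CD11b+ cDC array, 63.6 on that of pDC and 64.3 on that of CD8+ cDC, and Cd8a had 203567 in CD8+ cDC, 702 in CD11b+ cDC and 32230.5 in pDC. Siglech, a pDC surface lectin, had 106309.8 in pDC and lay below background in both cDC subsets.

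Immediate early genes are transcribed within minutes of a stimulus from factors already present in the cell, and most of their transcripts are short-lived. Fos and Jun proteins pair through leucine zippers to form AP-1, while Egr proteins bind DNA through zinc fingers and Nr4a proteins are orphan nuclear receptors. Dissociating tissue and sorting cells is known to induce many of these genes, and in DC they also respond to microbial products and cytokines.

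Promoter sequences were shown because these genes are known as targets of serum response factor, which binds the CArG box, and of CREB, which binds the cAMP response element (CRE) and a shorter form of it. RefSeq promoters of build GRCm38.p6 were found for 9 of the 10 members. Egr1 had no entry, so its promoter was not searched. For the others the 250 bases before each start were searched on both strands, and sites farther upstream were not looked for. The motifs were the short CRE TGACG, which reads CGTCA on the opposite strand, and the full CRE TGACGTCA, which contains it. Others were the AP-1 site, TGACTCA, then the TATA box, written TATAA, and the CArG box. The windows below run 5′ to 3′ on the strand of the gene, and capitals mark matches to these motifs.
Fos, chr12:85473755-85473864, plus strand: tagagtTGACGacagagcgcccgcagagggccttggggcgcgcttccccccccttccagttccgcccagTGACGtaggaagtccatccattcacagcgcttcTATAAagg
Fosb, chr7:19310091-19310120, minus strand: gcatggagttgcgggTGACGcaagcgcggg
Junb, chr8:84978839-84978868, minus strand: gcgcttcctgacagTGACGcgagccgcctc
Atf3, chr1:191183334-191183363, minus strand: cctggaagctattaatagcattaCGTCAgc
Egr2 (the second start), chr10:67537486-67537515, plus strand: gatcttctCCTTTTTTGGaaagtctcggag
Egr2 (the third start), chr10:67537789-67537818, plus strand: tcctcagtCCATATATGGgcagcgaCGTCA
Nr4a1, chr15:101266606-101266815, plus strand: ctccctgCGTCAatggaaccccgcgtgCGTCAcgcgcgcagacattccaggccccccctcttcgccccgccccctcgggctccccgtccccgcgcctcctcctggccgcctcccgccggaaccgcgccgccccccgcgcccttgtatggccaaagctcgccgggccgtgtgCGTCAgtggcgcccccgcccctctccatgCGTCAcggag

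The short CRE was found in 6 of the 9 members, namely Fos, Fosb, Junb, Atf3, Egr2 and Nr4a1, and in 19.8% of the 27025 genes of the table. Nr4a1 held 4 copies, a number reached by 45 of 32851 promoters (0.137%). Fos held 2 copies and a TATA box in the window shown. The CArG box was found only in Egr2 among the members, before 4 of its 5 annotated starts, against 1.62% of all genes. The last 3 of these starts lie close together and share 1 box, so the boxes are 2 in all, both shown. TATA boxes were found in 3 members, Fos, Egr2 and Ier3, and in 25.8% of all genes. Full CRE and AP-1 letters were found in 0 of the 9 members searched, against 1.77% and 5.16% of all genes. The median GC content was 61.2% over the 13 member promoters, with a range from 47.6% to 74.4%, and 52.4% over all promoters, with quartiles of 45.2% and 61.2%. Of the 13 member promoters 5 belong to Egr2, so the member median is weighted to that gene. The short CRE was present in genes with each kind of pattern described below, in Fos, near equal on the arrays, in Fosb, brightest in pDC, and in 4 of the 5 genes dim in pDC whose promoter was searched. These matches are letters in a window and not measured binding.

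Signals are the intensities as deposited, on a linear scale, and they were compared between arrays for the same probe set only. A background level of 111 was taken from 87 probe sets of odorant, pheromone and taste receptor genes, and lower values were set to it before log2 differences were taken. A gene was counted as higher on an array when its signal was at least 2-fold above the other array and above background. Each gene was represented by its brightest probe set, and 12 of the 13 member probe sets were above background on all 3 arrays.

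Of the Fos family, Fos itself was bright in every subset. Its signals were 359684 in pDC against 389867 in CD11b+ cDC and 435828 in CD8+ cDC, so the widest gap was 1.21-fold, between CD8+ cDC and pDC. The 3 levels were not separated by the 2-fold rule, and all lay above 65535, the highest reading of a 16-bit scanner, so they are scaled values. Signals above that reading were also found for Jun in pDC and CD11b+ cDC, and for Egr1 and Nr4a1 in CD11b+ cDC. Whether scanner saturation narrowed the gaps of these 4 genes was not tested. Fosb, the other Fos protein among the members, had signals of 10953 in pDC, compared with 4280.2 in CD11b+ cDC and 3506 in CD8+ cDC. The pDC array was the high one, 2.56-fold above CD11b+ cDC and 3.12-fold above CD8+ cDC, while the cDC arrays differed by 1.22-fold.

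The Jun family, whose products are the partners of Fos proteins, split in 3 ways. Jun followed Fosb, with signals of 187988 in pDC against 78932 in CD11b+ cDC and 39962 in CD8+ cDC at the brighter of its probe sets. It was 2.38-fold higher in pDC than in CD11b+ cDC and 4.70-fold higher than in CD8+ cDC, and the cDC subsets were 1.98-fold apart, just under the rule. The dimmer probe set of Jun gave the same order with another spacing, at 28039.7, 24614 and 10108. There pDC and CD11b+ cDC differed by only 1.14-fold and the cDC subsets by 2.44-fold, so the place of CD11b+ cDC between the others depended on the probe set. Junb ran the other way, with 1843 in pDC, compared with 17145 in CD11b+ cDC and 11555 in CD8+ cDC. It was 9.30-fold and 6.27-fold higher in the cDC subsets than in pDC, and these differed by 1.48-fold. Jund, which is known as the least inducible Jun gene, had near equal signals of 7762, 6835 and 7839.6. Its other probe set read 51.0, 51.7 and 51.6, below background on every array, and gives no level.

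Atf3, a stress-induced bZIP factor of the ATF/CREB family known to restrain inflammatory cytokine genes, had the widest range of the members. Its signals were 681 in pDC against 28586 in CD11b+ cDC and 22548 in CD8+ cDC. The pDC value was low against both others, by 42.0-fold and 33.1-fold, and the cDC values were 1.27-fold apart. Of the genes measured in each pair, 112 of 10796 (1.04%) were lower in pDC by as much or more against CD11b+ cDC and 175 of 10821 (1.62%) against CD8+ cDC.

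The Egr genes, zinc finger factors induced through the ERK pathway and by antigen receptors in lymphocytes, were also dim in pDC. Egr1 read 4573 in pDC, compared with 69823 in CD11b+ cDC and 58783 in CD8+ cDC, a gap of 15.3-fold and 12.9-fold from pDC. Egr2 read 875, 20892 and 21355, and pDC was lower by 23.9-fold and 24.4-fold. Its other probe set read 739, 14709 and 20349, with the same low array. Between the cDC subsets neither gene met the rule, at 1.19-fold for Egr1 and 1.02-fold for Egr2.

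Nr4a1, encoding the nuclear receptor Nur77, read 3288 in pDC against 72406 in CD11b+ cDC and 30754 in CD8+ cDC. All 3 subsets were separated by the rule, with CD11b+ cDC 22.0-fold above pDC, CD8+ cDC 9.35-fold above pDC, and CD11b+ cDC 2.35-fold above CD8+ cDC. Ier3, a stress-inducible gene whose product is known to modulate cell survival, read 1383 in pDC, compared with 27144 in CD11b+ cDC and 28235 in CD8+ cDC. It was 19.6-fold and 20.4-fold lower in pDC, and the cDC values were 1.04-fold apart.

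**Figure D1:**
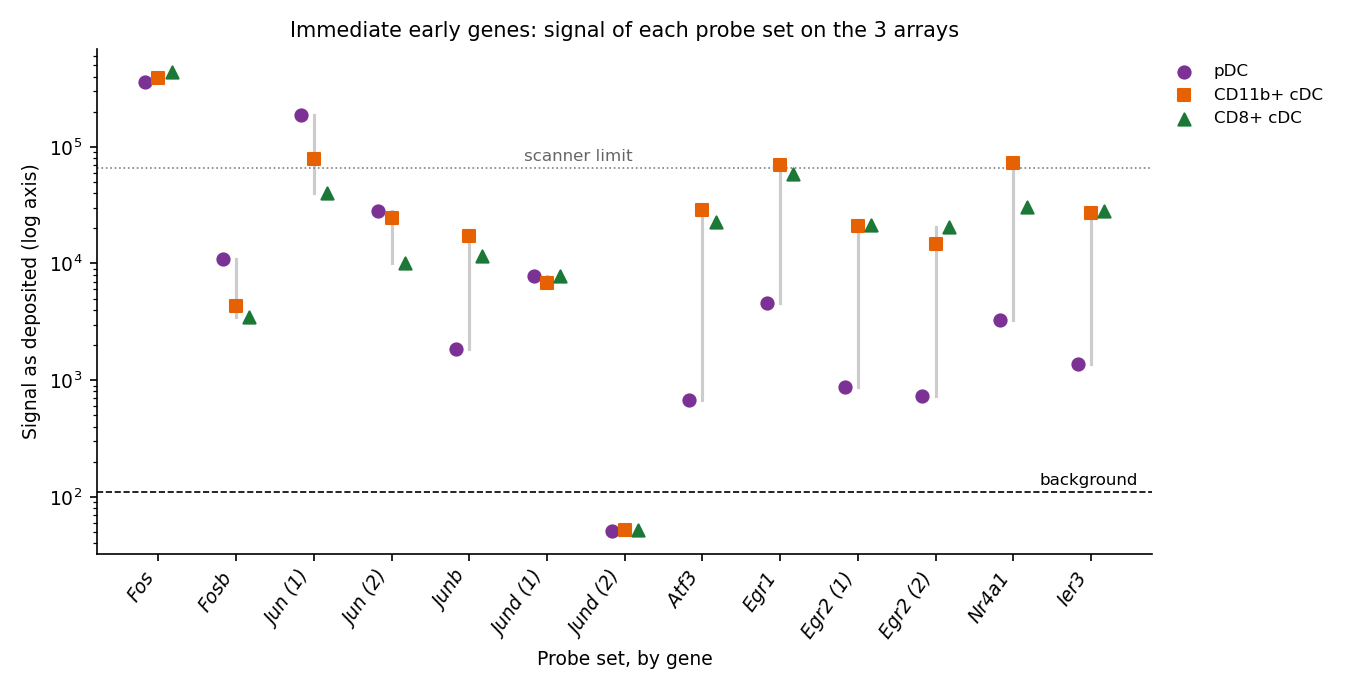
Deposited signal (log axis) of each of the 13 probe sets on the pDC (circles), CD11b+ cDC (squares) and CD8+ cDC (triangles) arrays, with a grey line from the lowest to the highest array. Each point is 1 array, the dashed line is the background level of 111 and the dotted line is 65535; (1) marks the brighter probe set of a gene. Junb, Atf3, Egr1, Egr2, Nr4a1 and Ier3 have the pDC point far below the cDC points, while Fos and the brighter Jund probe set lie close together.

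Counted over members, 6 of 10 (60.0%) were higher in CD11b+ cDC than in pDC, where 14.3% of all measured genes were. Those higher in pDC were 2 of 10 (20.0%), Fosb and Jun, where 15.0% of all genes were, and Fos and Jund met the rule in neither direction. Against CD8+ cDC the counts were again 6 higher in CD8+ cDC, against 14.8% of all genes, and 2 higher in pDC, against 16.0%. These pDC comparisons share the pDC array, so their counts are not separate evidence. The share of members higher in cDC was above the background share in both comparisons, while the share higher in pDC was near it. The median log2 difference of the members was -3.58 for pDC minus CD11b+ cDC and -2.94 for pDC minus CD8+ cDC, beside 0.01 and 0.00 over all genes. In each pair the 6 low members lay at or beyond -2.65 and the remaining 4 at or above -0.28, with 0 members between.

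**Figure D2:**
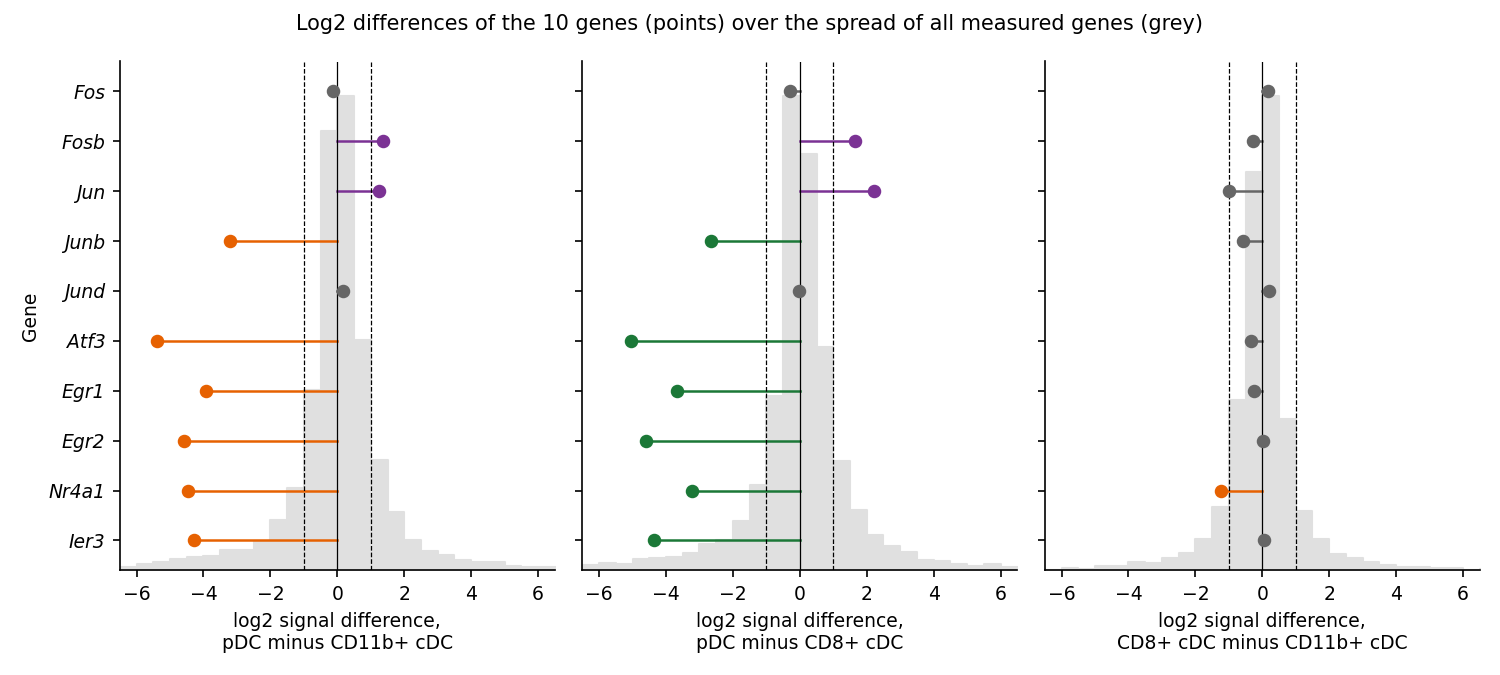
Log2 difference of each member between the arrays of each pair of subsets, from the brighter probe set, with the 2-fold limits dashed and a grey histogram of all measured genes behind, scaled to the panel height. Single values from 1 array per subset are plotted without error bars. The 6 genes low in pDC lie between -5.39 and -2.65 in the pDC pairs, and in the cDC pair 9 of 10 members lie within the limits.

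Between the cDC subsets Nr4a1 alone met the rule on the deposited scale, and this count depended on the scaling. It was 7 with spike-in and 9 with housekeeping scaling, as described below, but again 1 with scaling on housekeeping differences. Under spike-in and housekeeping scaling 5205 of 10507 and 5981 of 10500 measured genes were higher in CD11b+ cDC. All genes thus shifted and not the members alone. As deposited, 1 of 10 members was higher in CD11b+ cDC, where 10.3% of all genes were, and 0 were higher in CD8+ cDC, where 9.86% were. The median log2 difference for CD8+ minus CD11b+ cDC was -0.27, beside 0.01 over all genes. The difference of Nr4a1, -1.24, was met or passed by 827 of 10707 genes (7.72%), so its size was not rare on these arrays.

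Without replicates, the closest gauge of error on these arrays was a comparison of probe sets of the same gene. The log2 differences given by the brightest and the next probe set had a spread (SD of their difference) of 0.86 in the pDC and CD11b+ cDC pair, 0.89 where pDC was set against CD8+ cDC, and 0.74 in the cDC pair, over 4830, 4846 and 4798 genes. The 6 low members lay beyond the 95th percentile of this disagreement in both pDC pairs, whereas the values of Fosb and Jun against CD11b+ cDC, 1.36 and 1.25, lay below that percentile, 1.70. Against CD8+ cDC, Jun at 2.23 lay above and Fosb at 1.64 below the percentile of 1.84. Nr4a1 in the cDC pair lay below the percentile of 1.47. This gauge covers probe sets, not mice, sorts or amplifications, which vary together with the subset and cannot be told apart from it. A lower signal from fewer cells of a kind in a sort and from less RNA per cell cannot be told apart either.

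The deposited scaling set the medians of all genes level. When arrays were rescaled on 9 hybridization spike-in probe sets, the median of all genes moved in all pairs. It became -0.33 in the pair pDC minus CD11b+ cDC and 0.66 in the pair pDC minus CD8+ cDC, and -0.99 in the pair CD8+ minus CD11b+ cDC. Rescaling on the level of 12 housekeeping genes moved it to -0.39, 0.72 and -1.12. The same 6 members met the rule as lower in pDC under the deposited scaling and under every rescaling tried, with log2 differences from -5.85 to -1.93 under these scalings. Fosb and Jun remained higher in pDC than in CD8+ cDC, but against CD11b+ cDC they fell below the rule, at 0.97 and 0.87 with spike-ins and 0.90 and 0.80 with housekeeping genes. The cDC pair moved most, and members higher in CD11b+ cDC numbered 7 with spike-ins and 9 with housekeeping genes. Over all genes the counts were 5205 of 10507 and 5981 of 10500. Fos became higher in pDC than in CD8+ cDC by 0.38 and 0.44, and its sign turned in the cDC pair too, to -0.88 and -1.01, the last of which meets the rule. Jund changed sign in all 3 pairs and met the rule in none. The share of called genes that were higher in pDC than in CD11b+ cDC was 51.2% as deposited, 33.5% with spike-ins and 30.3% with housekeeping genes. It was 51.9%, 78.0% and 79.8% for pDC over CD8+ cDC, and 49.0%, 6.97% and 5.59% for CD8+ over CD11b+ cDC. Another scaling used the median of the per-gene differences of the 12 housekeeping genes and was chosen after the data were seen. With it Fosb and Jun stayed higher in pDC than in CD11b+ cDC, at 1.93 and 1.83. In the cDC pair Nr4a1 alone then met the rule, so the member changes above depended on which rescaling was used.

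**Figure D3:**
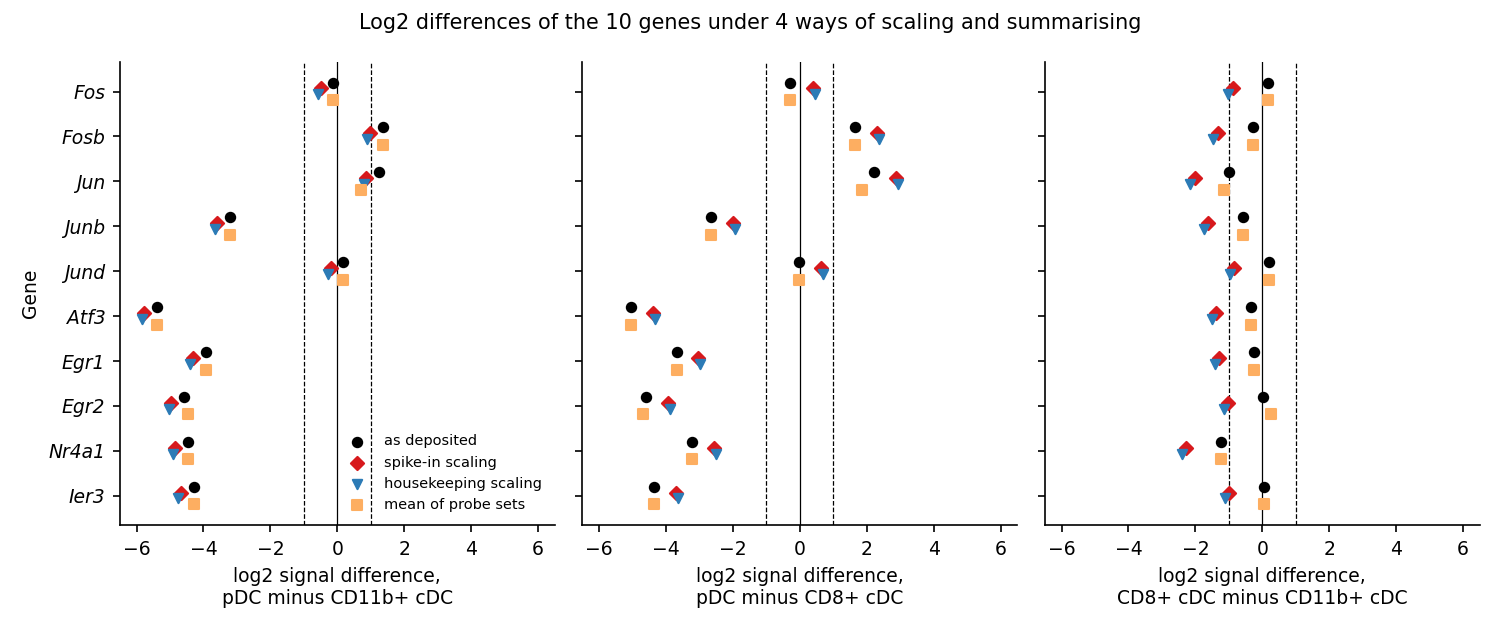
Log2 difference of each member in the 3 pairs of subsets under the deposited scaling, spike-in scaling and housekeeping scaling, with the 2-fold limits dashed. Squares show the mean of the probe sets of a gene, and each point is 1 gene on a single pair of arrays. The 6 members low in pDC stay beyond the limit in both pDC pairs, while in the cDC pair most members pass it only after these rescalings. Scaling on housekeeping differences, where Nr4a1 alone passes it in the cDC pair, is not shown.

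The likeness of patterns was measured as the Euclidean distance between log2 signals centred on each gene over the 3 arrays, where 0 is the same pattern. Among members the closest pairs were Egr2 and Ier3 at 0.22, Fos and Jund at 0.23, Egr1 and Ier3 at 0.47, and Fosb and Jun at 0.53. The farthest pair was Jun and Atf3, at 5.70. Of the 11015 genes above background on any array, those nearest to Atf3 were Nuf2 (0.061), Rad54l (0.179) and Ncaph (0.199). They act in the kinetochore, DNA recombination and chromosome condensation, in that order. Rad54l read 97.8 in pDC, below background, and was set to the background level, so its distance rests on that set value. Nuf2 read 115 in pDC, just above background, so its gap to the cDC arrays is also poorly measured. Nearest to Egr2 were Cd80 (0.100), a costimulatory ligand, Rab30 (0.102), a small GTPase, and Crybg1 (0.105). Nearest to Nr4a1 were Rrm2 (0.116), a ribonucleotide reductase subunit, Afdn (0.181), an adherens junction protein, and Gbp2 (0.206), an interferon-induced GTPase. Of the 11015 genes searched, those within 0.5 numbered 24 for Atf3, 41 for Egr2 and 37 for Nr4a1, so other genes had such patterns too. With 3 arrays, nearness describes a shape with few degrees of freedom.

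Other Egr and Nr4a genes were low in pDC as well. Of 4 genes measured against CD11b+ cDC, 3 were lower in pDC, and of 5 against CD8+ cDC, 4 were lower, with median log2 differences of -4.17 and -5.20. The shares of all genes lower in pDC were 14.3% and 14.8%. Egr3 had signals of 408 in pDC against 8194 in CD11b+ cDC and 49121 in CD8+ cDC. Nr4a3 had 220.3, 8636 and 21562, and Nr4a2 had 371, 5974 and 13678. Here CD8+ cDC was the highest array, by 5.99-fold over CD11b+ cDC for Egr3, 2.50-fold for Nr4a3 and 2.29-fold for Nr4a2, the reverse of Nr4a1. Nab2, a corepressor of Egr proteins, was above background only in CD8+ cDC, at 533, at least 4.79-fold over the other arrays. The number of genes of this list higher in CD8+ than in CD11b+ cDC, 4 as deposited, was 2 with spike-in or housekeeping scaling, while the counts lower in pDC were the same.

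Of 12 measured AP-1 and related bZIP genes outside the members, 4 were lower in pDC than in CD11b+ cDC and 4 than in CD8+ cDC. As deposited 0 were higher. Over all genes 14.3% and 14.8% were lower in pDC in these pairs, and 15.0% and 16.0% were higher. The list medians were near 0, at -0.01 and -0.25. With housekeeping scaling 3 were higher in pDC than in CD8+ cDC, and with scaling on housekeeping differences 3 were higher than in CD11b+ cDC. When background was set at the 99th percentile, 412, those lower in pDC than in CD8+ cDC were 2. Batf3, required for the CD8+ cDC lineage and also a cDC marker, had 172 in pDC, compared with 30189 in CD11b+ cDC and 37688 in CD8+ cDC. Jdp2, a repressor that pairs with Jun proteins, had 434, 3229.5 and 9879. Fosl2, a Fos relative, had 117, 2326 and 528, and Maff, a small Maf protein, had 124, 1331 and 775. The low array was pDC for each of these 4 genes, and Fosl2 was 4.40-fold higher in CD11b+ cDC than in CD8+ cDC.

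Immediate early genes of other families, 40 in the list and 37 measured, moved in both directions. Against CD11b+ cDC 17 were lower and 6 higher in pDC, with a median of -0.71, but with scaling on housekeeping differences the counts were 10 and 10. Against CD8+ cDC 14 were lower and 10 higher, with a median of -0.20, but the balance turned with the scaling. It was 11 lower and 14 higher with spike-in scaling, and 11 lower and 15 higher with housekeeping scaling. The shares of all genes as deposited were 14.3% lower and 15.0% higher against CD11b+ cDC, and 14.8% lower and 16.0% higher against CD8+ cDC. Cd83, a marker of mature DC, had signals of 1372 in pDC against 159344 in CD11b+ cDC and 241996 in CD8+ cDC. Gadd45g, a growth arrest gene, had 327, 27875 and 20841, and Dusp2, a MAP kinase phosphatase, had 378, 13440.1 and 22022. Sgk1, a serum-induced kinase, had 536, 21011 and 38490.3. In the other direction, Cd69, an early activation antigen, had 9242 in pDC, compared with 589 in CD11b+ cDC and 542 in CD8+ cDC. Sik1, a salt-inducible kinase, had 30033, 3115 and 7624, and Trib1, a pseudokinase, had 3960.2, 229 and 1320.3. Genes of this class were therefore not uniformly dim on the pDC array. Dusp1, the phosphatase that ends MAP kinase signals, was 6.04-fold and 4.01-fold lower in pDC, and Ier2 was 7.95-fold and 4.85-fold lower.

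Genes upstream of the members differed in both directions. Of 27 measured kinases and activators, 7 were lower and 3 higher in pDC than in CD11b+ cDC (median -0.21), where 14.3% and 15.0% of all genes were. Against CD8+ cDC 6 were lower and 8 higher (median 0.07), where 14.8% and 16.0% of all genes were. With spike-in scaling the list counts were 9 lower and 1 higher, and 1 lower and 12 higher, so the balance of this list depended on the scaling. Srf, encoding serum response factor, had 7784 in pDC against 13336 in CD11b+ cDC and 9960.4 in CD8+ cDC, and Creb1 had 16645, 22640 and 21364, and neither met the rule in any pair. These 2 genes and Elk4 are named because their products bind the motifs searched or a site beside them, and were chosen after their values were seen. Elk4, a partner of serum response factor, had 24774, 19491 and 19097 and did not meet it either. Mapk14, encoding p38 alpha, had 50656 in pDC against 256302 and 116282 in CD11b+ and CD8+ cDC, and its difference from CD8+ cDC met the rule at 1 of 4 measured probe sets. Map2k6, a kinase that activates p38, was also lower in pDC, with 703 against 1768 and 2828. Mef2c, a MADS box factor, ran the other way, with 79491 in pDC, compared with 31520.3 in CD11b+ cDC and 3611 in CD8+ cDC. Crem, a CREB relative whose short form represses CRE genes, was also higher in pDC, with 2190.4, 333 and 598.

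Heat shock and stress genes can also be induced by sorting. Of 15 measured, 2 were lower and 1 higher in pDC than in CD11b+ cDC (median -0.14), where 14.3% and 15.0% of all genes were. Against CD8+ cDC 3 were lower and 4 higher (median -0.12), where 14.8% and 16.0% of all genes were. With spike-in scaling they were 4 lower and 0 higher, and 1 lower and 4 higher. Hspa1a, an inducible Hsp70 gene, had 32625 in pDC against 149094 in CD11b+ cDC and 148363 in CD8+ cDC. Its near-identical copy Hspa1b had 204748, 402821 and 381198 and did not meet the rule, and probe sets of these copies can share transcripts. Dnajb1, an Hsp40 cochaperone, was higher in pDC, with 97599, 39544 and 37794. Whether handling during the sort contributed to the level of any member was not tested.

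**Figure D4:**
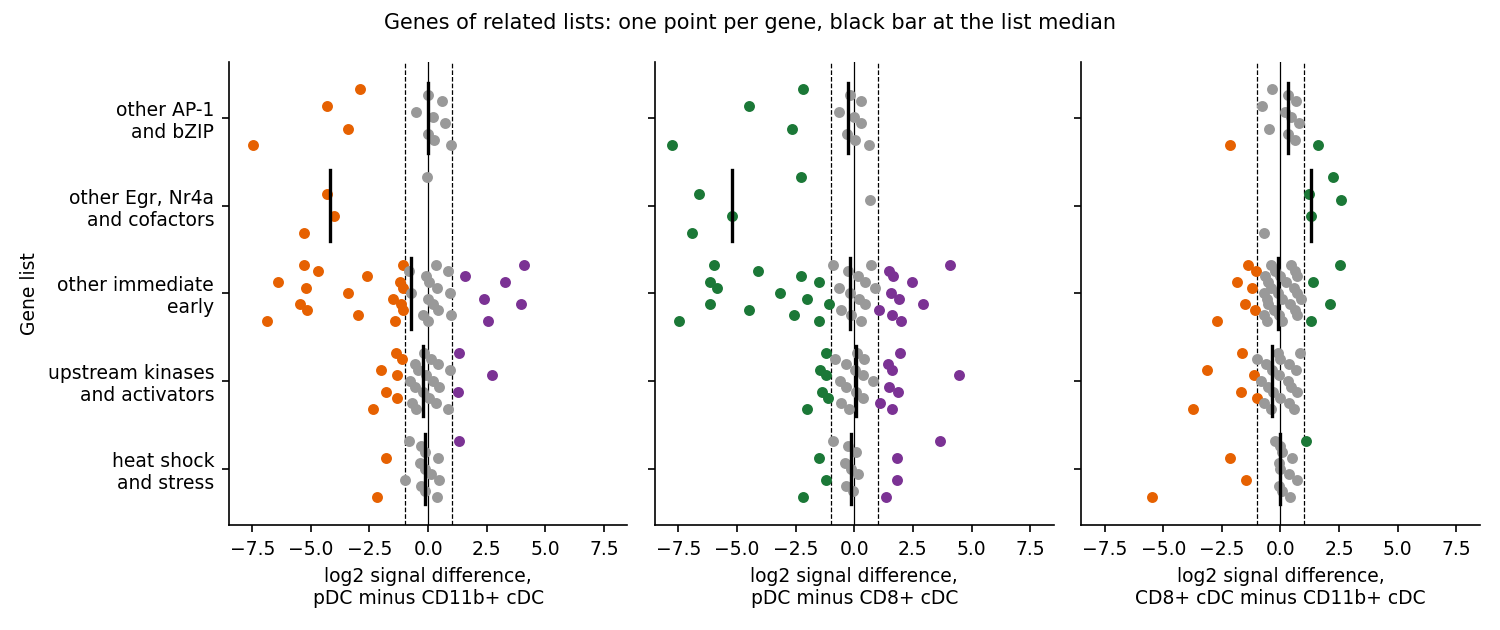
Log2 difference of each measured gene of the 5 related lists in the 3 pairs of subsets, 1 point per gene, with the list median as a black bar and the 2-fold limits dashed. Purple, orange and green points are higher in pDC, CD11b+ cDC and CD8+ cDC, and grey points are within the limits. The medians of the Egr and Nr4a relatives lie at -4.17 and -5.20 in the pDC pairs, while upstream and heat shock genes centre near 0.

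Markers of other cells were examined beside these values. The 9 matched pDC markers were all higher in pDC than in either cDC subset, and 7 of 8 cDC markers were lower. Of 7 CD11b+ cDC markers, 5 were higher in CD11b+ cDC than in pDC and 2 were higher in pDC. All 6 of them measured in the cDC pair were higher in CD11b+ cDC. Of 7 CD8+ cDC markers, 7 were higher in CD8+ than in CD11b+ cDC, and 6 were higher in CD8+ cDC than in pDC. Of 12 monocyte and macrophage markers, 12 were above background on every array. Their summed signal was 111735 in pDC, compared with 394053 in CD11b+ cDC and 162353 in CD8+ cDC. In pDC 8 of the 12 were lower and 0 higher than in CD11b+ cDC, while 3 were lower, 1 higher and 8 not called against CD8+ cDC. Junb, Atf3, Egr1 and Nr4a1 had the same order of arrays as this sum, while Egr2 and Ier3 were brightest in CD8+ cDC, by 1.02-fold and 1.04-fold over CD11b+ cDC. The cDC gaps of Junb, Atf3 and Egr1, at 1.48-fold, 1.27-fold and 1.19-fold, did not meet the rule, so their order within the cDC is not separated. Of 8 neutrophil markers, 7, 7 and 6 were above background, with sums of 2735, 17215 and 1445. T cell markers numbered 4, 3 and 3 of 8 with sums of 6001, 3464 and 1152, and Cd3e, Cd3d and Cd3g were below background on all arrays. The brightest T cell markers were Cd28 in pDC (4830.1) and Cd5 in CD11b+ cDC (2832) and CD8+ cDC (432). B cell markers numbered 4, 5 and 4 of 9 with sums of 66114, 94492 and 34354, and Cd79a and Pax5 were below background on all arrays. The brightest B cell markers were Fcrla in pDC (54639), Cd22 in CD11b+ cDC (78539.6) and Ms4a1 in CD8+ cDC (19147). NK cell markers numbered 3, 4 and 4 of 7 with sums of 97028, 84717 and 5872, mostly from Klrd1 (96243, 83389 and 4413). In the same list Ncr1 and Prf1 were below background. Erythroid and platelet markers numbered 5 of 7 on each array, with sums of 2789, 6955 and 3276. The ratio of 3′ to 5′ control signals was 5.71, 2.91 and 4.08 for Actb and 16.2, 9.68 and 17.6 for Gapdh. Genes above background numbered 10336 in pDC against 10403 in CD11b+ cDC and 10390 in CD8+ cDC. The part of other cells and of RNA quality in the member values was not tested.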

How the data were processed

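Total RNA of 3 sorted DC subsets was measured on 3 Affymetrix mouse arrays. The deposited values are 1 linear intensity per probe set and array, made by the authors with MAS5, per the submitters' processing notes. The version and any further scaling are not given in the sources used here. The number of arrays limits the precision.

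Probe sets were named by the platform annotation: 34958 had 1 gene, 932 several (not used) and 9211 none. Background was the 95th percentile of 87 receptor probe sets on the array where it was highest (111), and lower values were set to it before log2. Each gene was read at its brightest probe set by mean log2 signal. Genes were called at 2-fold with the brighter array above background, among genes above background on either array of a pair. Where the dimmer array lay at background, the fold is written as at least that size.

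The members and gene lists were chosen with earlier results of these data known. Named genes are all members, up to 4 genes per list, direction and pair with the largest differences among those called, of which the text gives a part, the 3 genes nearest to the 3 members of widest range, and Itgam, Cd8a and Siglech. Srf, Creb1, Elk4, Dusp1, Dusp2, Ier2, Hspa1b and the marker genes named as below background or as brightest were added after their values were seen. Of the list entries, 14 of 15 bZIP, 6 of 6 Egr and Nr4a, 40 of 40 immediate early, 27 of 34 upstream and 16 of 17 heat shock genes were matched. Promoters came from RefSeq (GRCm38.p6), and matches were searched in their 250 upstream bases. Calling was checked on simulated arrays without noise, where the outcome follows from the 2-fold rule, so this check gauges no error of the arrays. Alternatives covered scaling, probe set choice, background and fold. Python 3.11.15, numpy 2.4.6 and pandas 2.3.3 were used.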

Additional observations from a re-analysis of the deposited data

How the results depend on the processing

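No paired analysis was possible because each cell type has 1 array. The same 6 members were lower in pDC than in both cDC subsets under the main setting and all 10 alternatives, 1 of which, scaling on housekeeping differences, was chosen after seeing the data. Of 60 member counts under the alternatives, 50 stayed within 1.5 times the main count, and of 240 member differences 220 kept their side of the rule, 5 fell below it and 15 passed it. Of called differences 0 changed sign, but uncalled differences, such as those of Fos and Jund, did change sign. Members higher in pDC than in CD11b+ cDC, 2 in the main setting, were 0 with spike-in scaling, housekeeping scaling or a 4-fold threshold and 1 with the mean of probe sets, which left Jun at 0.72. Members higher in pDC than in CD8+ cDC, 2 in the main setting, were 1 at 4-fold. Members higher in CD11b+ than in CD8+ cDC, 1 in the main setting, were 7 with spike-in scaling, 9 with housekeeping scaling, 2 with the mean of probe sets, 0 at 4-fold and 2 at 1.5-fold. Genes of the 5 lists higher in pDC than in CD11b+ cDC (10) were 23 with scaling on housekeeping differences, 6 at 4-fold and 18 at 1.5-fold, and those higher in CD11b+ cDC (33) were 20 at 4-fold. List genes higher in pDC than in CD8+ cDC (22) were 35 with housekeeping scaling and 5 at 4-fold. List genes higher in CD8+ than in CD11b+ cDC (10) were 4 with spike-in scaling, 3 with housekeeping scaling, 4 at 4-fold and 23 at 1.5-fold, and those higher in CD11b+ cDC (17) were 52, 55, 6 and 27 under the same settings. Scaling on housekeeping differences moved the median of all genes to 0.57, 0.40 and 0.16 for pDC minus CD11b+, pDC minus CD8+ and CD8+ minus CD11b+ cDC, with 75.7%, 69.4% and 59.7% of called genes higher on the array named first. For pDC this shift is opposite to that of housekeeping scaling in the first pair, so no housekeeping rule settles the scale. Changes at other thresholds follow from the threshold itself, and the cause of those under other scalings was not tested beyond the shift of all genes. Above the 16-bit limit lay Fos on all arrays, Jun in pDC and CD11b+ cDC, and Egr1 and Nr4a1 in CD11b+ cDC, and the dimmer Jund probe set lay below background.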

Other observations

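Several genes of the lists separated the cDC subsets more than any member did. Ddit4, a stress-induced inhibitor of mTORC1, had signals of 2716 in pDC, compared with 9484 in CD11b+ cDC and 213 in CD8+ cDC, so CD11b+ cDC was 44.5-fold above CD8+ cDC. Elk3, an ETS factor that partners serum response factor, had 7480.3, 25694 and 1922, a gap of 13.4-fold between the cDC subsets. Klf4, a zinc finger factor also counted as an immediate early gene, had 44347, 92170.4 and 14332, and CD11b+ cDC was 6.43-fold above CD8+ cDC. In these 3 genes pDC lay between the cDC subsets, whereas in Nr4a1, the member that met the rule in the cDC pair, pDC was lowest. Each value comes from 1 array per subset.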
